A study of Rattus norvegicus with 8 samples.

Results

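Prolactin, the receptors through which it and its regulators act, and the STAT5 branch of its signalling were examined in the pituitary of nursing rats exposed to TCDD. They are represented by 10 genes, chosen by name. The arrays read these genes through 12 probes of 30367, on 57 of 42877 non-control spots per array. The 8 samples were whole pituitaries of Wistar dams that were lactating, collected on postpartum day 7. Of these dams 4 were control and 4 had received TCDD, a dioxin that activates the aryl hydrocarbon receptor. The labels used here give no dose, day of exposure, vehicle or age, and do not say how samples were taken beyond the number of rats, so a p-value here weighs the groups against sample-to-sample spread, which may be technical. The question of the comparison is how pituitary transcripts of mothers differ after exposure.

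Prolactin is made by the lactotrophs of the anterior lobe and drives milk production. Its release is held back by dopamine from the hypothalamus through the D2 receptor and is stimulated by peptides such as VIP, whose receptors are VPAC1 and VPAC2, and by oxytocin. The prolactin receptor signals through the kinase JAK2 to the transcription factors STAT5A and STAT5B, which switch on CISH and SOCS2. CISH and SOCS2 in turn restrain the signal, so their transcripts are commonly read as markers of STAT5 activity.

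The probe sequences are shown for 4 genes because the reading of each gene rests on where its probe sits. The first 30 bases of the probe are given for Prl and for both probes of Drd2 and of Cish, and all 60 bases for Prlr. The sequences are the deposited array design's, 5′ to 3′, in lower case throughout.
Prl: gcctacattcattccatgtacatctgagat
Drd2, probe used: tgcagtttggagggttctgggatccaactc
Drd2, other probe: tgaatatacactgtgattgcaacatcccac
Cish, probe used: aactgtgtctattctcccagccctggtttc
Cish, other probe: cctgtttacattgtcagtcaaaaccacccg
Prlr: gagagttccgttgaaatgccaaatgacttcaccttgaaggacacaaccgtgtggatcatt
The Prl probe lies, by the rat build rn4 that the design uses, on the minus strand at chr17:44699179-44699238. The Drd2 probe that was used lies on the plus strand at chr8:52707670-52707729, and the other at chr8:52706533-52706592. The Cish probe that was used lies on the plus strand at chr8:112545330-112545389, and the other at chr8:112544581-112544640. The 60 bases of the Prlr probe are spread over 505 bases of genome, chr2:59677666-59678170, so the probe crosses a gap. Whether a probe lies in an exon's coding or untranslated stretch was not determined, nor was hybridisation to close relatives such as Stat5a with Stat5b. The Vipr1 probe is listed as unmapped.

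The arrays were of like brightness, with a 75th percentile of signal between 765 and 932, and no non-control spot was marked as saturated. Slide 1 carried the control arrays and slide 2 the TCDD arrays, so an effect of the slide and one of TCDD cannot be told apart in the results. Of 4 AhR target genes taken as a check of the labels, Cyp1a1, Cyp1a2 and Ahrr each read above background in 0 of 4 controls and 4 of 4 exposed dams, and so passed the filter on dim probes only through the exposed group. Cyp1b1 was above background throughout and differed by 0.36 with overlapping groups (limma, adjusted p = 0.32). The defining hormone genes of the anterior lobe (Prl, Gh1, Pomc, Cga, Lhb, Tshb and Fshb) were well above background on all 8 arrays. Control replicate 4 stood apart from the other controls in markers of other cells. All 5 measured markers of red blood cells were higher after TCDD, with 0 past the threshold. Their summed signal relative to the array's 75th percentile ran from 305 to 426 after TCDD, was 364 on control replicate 4 and ran from 212 to 233 on the other controls, so without that replicate the groups did not overlap. For 6 posterior lobe and neural markers it ran from 2.43 to 3.90 after TCDD and was 2.44 on control replicate 4. On the other controls it ran from 4.85 to 6.32, again apart without that replicate. Gfap was not kept by the filter on dim probes. Oxt and Avp, the brightest of the 6, make up most of this sum. Of the 6 markers, 5 were lower after TCDD and 1, Rax, was higher, with 0 past the threshold. For 6 leukocyte markers the summed signal ran from 4.73 to 6.94 in controls and from 3.33 to 6.94 after TCDD. Cd74, the brightest of the 6, makes up most of this sum. Of the 6 markers, 5 were lower after TCDD and 1, Mpo, was higher. Itgb7 passed the threshold at -0.94 (limma, adjusted p = 0.042), where 0.0806% of all genes passed. Mpo, at 0.73, did not pass (limma, adjusted p = 0.09), though its groups did not overlap. For the 4 lactotroph markers Prl, Drd2, Pou1f1 and Agtr1b the summed signal ran from 329 to 350 in controls and from 312 to 347 after TCDD. Prl, the brightest of the 4, makes up most of this sum, which is thus no separate measure of lactotroph content. Of the 4 markers, 1, Pou1f1, was higher after TCDD (0.35) and 3 were lower (Agtr1b by -0.25), with 0 past the threshold. The part of red cell or posterior lobe RNA in the results was not tested. In whole tissue, fewer cells of a type and less RNA per cell cannot be told apart.

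None of the prolactin genes differed between the groups beyond the spread of the samples. Of the 10 genes, 9 passed the filter on dim probes, and 0 of the 9 passed an adjusted p of 0.05 (limma across 17361 genes, of which 0.0806% passed). At an unadjusted p under 0.05 the count was also 0 of 9, where the share over all genes was 10.7%. In none of the 9 did the 4 TCDD arrays lie all above or all below the 4 control arrays, which happened for 7.10% of all genes. After TCDD 3 of the 9 were higher and 6 lower, where 56.4% of all genes were higher, a share that median scaling brings to 44.3%. Their median log2 difference was -0.0044, beside 0.02 over all genes. A p that misses the threshold does not show that levels are equal, so each difference is given below with its 95% confidence interval. All levels are log2 signals relative to the 75th percentile of the same array, so 8 means 8 doublings above that percentile, and a difference is TCDD minus control.

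**Figure D1:**
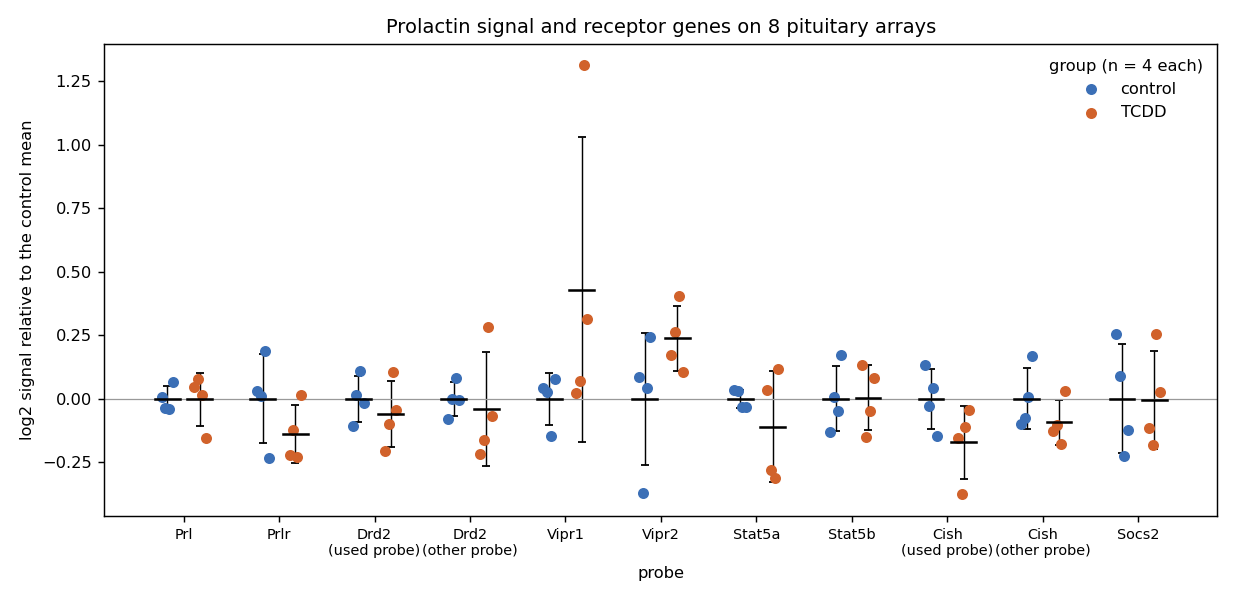
Each point is 1 array, for the 11 probes that passed the filter on dim probes; the vertical axis is the log2 signal relative to the mean of the 4 control arrays, the bar is the group mean and the whisker 1 SD. The groups overlap at every probe, and the point farthest from its control mean is Vipr1 on TCDD replicate 3.

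**Figure D2:**
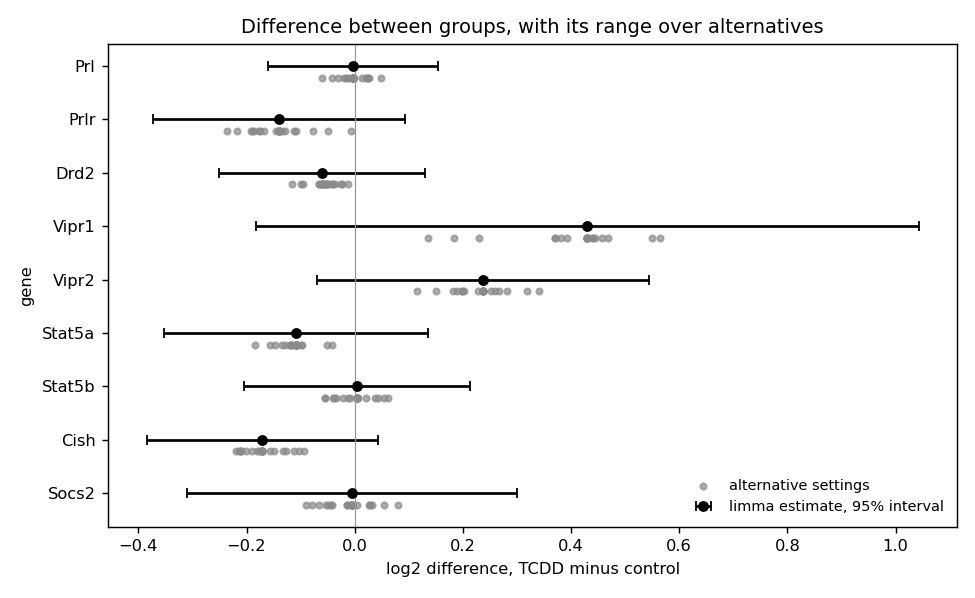
The log2 difference (TCDD minus control) of the 9 measured genes is drawn with its 95% interval from limma, and the grey points under it are its values under alternative settings. Every interval crosses 0, from -0.16 to 0.15 for Prl at the narrow end and from -0.18 to 1.04 for Vipr1 at the wide end.

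Prolactin messenger RNA stood at nearly equal levels in both groups. The log2 level of Prl on control replicates 1 to 4 was 8.18, 8.14, 8.13 and 8.24, and on TCDD replicates 1 to 4 it was 8.22, 8.25, 8.19 and 8.02. The groups overlapped, and TCDD replicate 4 was the lowest of the 8 while TCDD replicate 2 was the highest. Before scaling, the processed signals of these arrays were close, at 232764 on TCDD replicate 4 and 233547 on TCDD replicate 2. The 75th percentiles that divided them were 897 and 765, so their distance in level came with the scaling. The control mean was 8.17 ± 0.05 (SD, n = 4), and the TCDD mean was 8.17 ± 0.10 (SD, n = 4). The fold change was 0.998, with a 95% interval from 0.895 to 1.11 (limma, adjusted p = 0.995; exact two-sided permutation p = 1). The sign of so small a difference depended on the scaling. The residual spread of Prl between arrays of a group, an SD of 0.08, was below that of most genes (percentile 17).

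The Prl signal was bright and was read on a single spot per array. Its control mean of 8.17 was below those of Gh1 (8.49) and Pomc (8.63). Its processed signal was 270184, 245539.5, 241344 and 243645 on control replicates 1 to 4, and 250343, 233547, 239947.5 and 232764 on TCDD replicates 1 to 4. Before background subtraction and scaling, the mean signal of the spot ran from 216583 to 230265.5 in controls. After TCDD it ran from 198800 to 210432. By this unscaled measure the groups did not overlap, while the processed signals did. No pixel of these spots was counted as saturated, and the headers give extended dynamic range extraction for all 8 arrays. Proportionality between signal and RNA at this brightness was not tested. With 1 spot per array, the measurement error within an array cannot be separated from the difference between dams.

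The D2 dopamine receptor, Drd2, through which dopamine silences lactotrophs, was read by a pair of probes on 10 spots each. By the probe used, the log2 level was 4.76, 4.88, 4.98 and 4.85 on control replicates 1 to 4 and 4.66, 4.77, 4.97 and 4.82 on TCDD replicates 1 to 4. The ranges overlapped, with TCDD replicate 1 lowest and control replicate 3 highest. The difference was -0.06 (SE 0.08), a fold change of 0.959 with an interval from 0.840 to 1.09 (limma, adjusted p = 0.85; exact permutation p = 0.46). The other probe gave -0.04 (SE 0.11; adjusted p = 0.94 over all kept probes). By the probe used, the difference was -0.01 without TCDD replicate 1, -0.02 without control replicate 3, -0.10 without control replicate 1 and -0.12 without TCDD replicate 3. The spots of the probe used had a coefficient of variation within an array of 1.76% to 3.59%. That is a median error of the array's mean of 0.01 on the log2 scale, against an SD of 0.11 over the 8 arrays. The spread of Drd2 between arrays was thus larger than the error between spots.

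**Figure D3:**
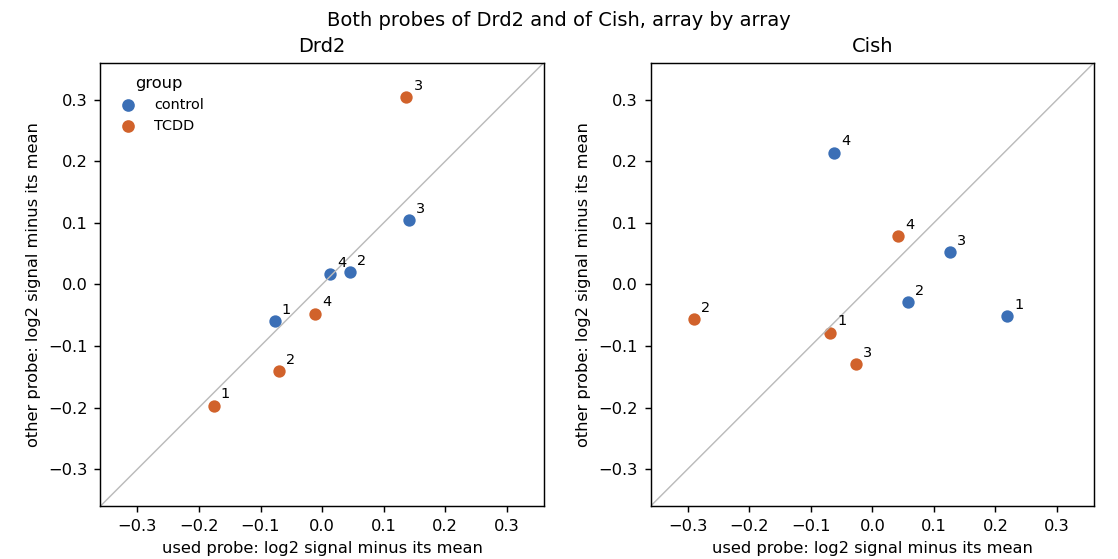
Each point is 1 array, numbered by its replicate, with the log2 signal of the probe used on the horizontal axis and of the other probe on the vertical axis, each relative to its own mean over the 8 arrays; the line marks equal deviations. The Drd2 points lie near the line except TCDD replicate 3, while the Cish points scatter, control replicate 4 lying above the line and control replicate 1 below it.

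The pair of Drd2 probes ranked the arrays alike: control replicates 2 and 4 and TCDD replicates 1 and 4 took the same rank by either probe, and no array moved by more than 1 rank. TCDD replicate 3 was the exception in size, at 0.14 above the mean of the 8 arrays by the probe used and 0.30 above it by the other.

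The receptors for VIP had positive differences, neither of which passed. Vipr2, which encodes VPAC2, stood at -3.39, -3.84, -3.43 and -3.23 on control replicates 1 to 4 and at -3.30, -3.21, -3.07 and -3.37 on TCDD replicates 1 to 4. All 4 TCDD arrays lay above the control mean and 2 of them above the highest control. The difference was 0.24 (SE 0.13), a fold change of 1.18 with an interval from 0.953 to 1.46 (limma, adjusted p = 0.59; exact permutation p = 0.14). Control replicate 2 was the lowest of the 8, and without it the difference was 0.11. With normexp and quantile normalization it was 0.15.

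Vipr1, which encodes VPAC1, was the most variable of the 9. It stood at -5.27, -5.29, -5.46 and -5.24 on control replicates 1 to 4 and at -5.29, -5.25, -4.00 and -5.00 on TCDD replicates 1 to 4. TCDD replicate 3 was far above the others, at a processed signal of 51.2, where the other 7 arrays read 19.5 to 28.0. The difference was 0.43 (SE 0.27), a fold change of 1.35 with an interval from 0.881 to 2.06 (limma, adjusted p = 0.63; exact permutation p = 0.20), and without TCDD replicate 3 it was 0.14. With normexp background correction it was 0.23, and 0.18 with quantile normalization added in place of the 75th percentile. The residual SD of Vipr1, 0.43, was larger than that of 91.5% of genes, and its single spot per array leaves no estimate of spot error.

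The oxytocin receptor gene Oxtr, whose product carries the signal of suckling-released oxytocin, was not well above background on any of the 8 arrays. Its processed signal was 4.86, 6.32, 8.24 and 9.72 on control replicates 1 to 4 and 8.29, 7.60, 4.79 and 4.67 on TCDD replicates 1 to 4. The ranges overlapped, and no fold or test is given at this signal. A change in Oxtr was not detectable with this probe.

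The prolactin receptor itself, Prlr, was dim and was read on 10 spots. Its log2 level was -5.06, -5.08, -4.90 and -5.32 on control replicates 1 to 4, and -5.31, -5.21, -5.32 and -5.08 on TCDD replicates 1 to 4. Control replicates 1 and 3 lay above every TCDD array, control replicate 2 was level with TCDD replicate 4, and control replicate 4 was as low as the lowest TCDD arrays. The difference was -0.14 (SE 0.10), a fold change of 0.908 with an interval from 0.773 to 1.07 (limma, adjusted p = 0.69; exact permutation p = 0.29). Without control replicate 4 it was -0.22 (limma, adjusted p = 0.39) and without control replicate 3 it was -0.08. It was -0.24 in the deposited table, -0.05 with normexp and quantile normalization and -0.0067 with normexp and the 75th percentile. Spots of this dim probe varied by 8.30% to 44.3% within an array, the highest on TCDD replicate 2.

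The transcription factors that carry the signal, Stat5a and Stat5b, did not pass either. Stat5a stood at -0.28, -0.28, -0.34 and -0.34 on control replicates 1 to 4 and at -0.27, -0.59, -0.62 and -0.19 on TCDD replicates 1 to 4. TCDD replicate 4 lay above every control, TCDD replicate 1 was level with the highest controls, and TCDD replicates 2 and 3 lay below every control. The SD was 0.04 in controls and 0.22 after TCDD, both n = 4. The difference was -0.11 (SE 0.11), a fold change of 0.927 with an interval from 0.783 to 1.10 (limma, adjusted p = 0.78; exact permutation p = 0.43). It was -0.04 without TCDD replicate 3, -0.05 without TCDD replicate 2 and -0.19 without TCDD replicate 4. Spots within an array varied by 4.76% to 6.85%, so the spread of the TCDD arrays exceeded the spot error. Stat5b ran from -4.21 to -3.91 in controls and from -4.23 to -3.95 after TCDD, with a difference of 0.0039 (SE 0.09), a fold change of 1.00 and an interval from 0.867 to 1.16 (limma, adjusted p = 0.99). Its sign turned with the scaling.

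Among the feedback genes, Cish, an SH2 protein that blocks STAT5 docking on the receptor, had the smallest p of the 9 without passing. By the probe used, its log2 level was -2.67, -2.83, -2.76 and -2.95 on control replicates 1 to 4 and -2.96, -3.18, -2.92 and -2.85 on TCDD replicates 1 to 4. All 4 TCDD arrays lay below the control mean, 2 of them below the lowest control. The difference was -0.17 (SE 0.09), a fold change of 0.888 with an interval from 0.766 to 1.03 (limma, adjusted p = 0.57; exact permutation p = 0.11), and without TCDD replicate 2, the lowest array, it was -0.10. The other probe gave -0.09 (SE 0.08; adjusted p = 0.75 over all kept probes), with TCDD levels from -4.21 to -4.00 against -4.13 to -3.86. The pair of probes ordered the arrays differently. Control replicate 4 was the lowest control by the probe used and the highest of all 8 by the other, and control replicate 1 was the highest of all by the probe used and rank 5 by the other. The probes' deviations from their own means differed by up to 0.28 on an array, more than the difference between the groups.

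Socs2, a SOCS protein that marks receptors for degradation, was read on 10 spots. It ran from -4.16 to -3.68 in controls and from -4.12 to -3.68 after TCDD, ranges that nearly coincide. The difference was -0.0044 (SE 0.13), a fold change of 0.997 with an interval from 0.807 to 1.23 (limma, adjusted p = 0.996). Its sign was kept under each change of scaling, and turned with normexp background correction at the same scaling, with the median of spots and when some single arrays were left out.

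The promoters were searched for the STAT5 motif because Cish and Socs2 are read here as STAT5 targets. RefSeq windows of the GRCr8 build, 250 bases before to 50 after each start, matched 9 of the 10 genes by symbol, Socs2 being the one with none and Prlr having 2. The letters TTCNNNGAA, which read alike on both strands, stood in 8.87% of the 33469 windows in the table. Among the members they stood in Prl, in 1 of the windows of Prlr, and 4 times in Cish. Only 0.00598% of all windows, 2 in number and Cish among them, held 4 or more. The 250 bases before the start of Cish, on the plus strand at chr8:116850719-116850968, are printed with each match in capitals.
Cish: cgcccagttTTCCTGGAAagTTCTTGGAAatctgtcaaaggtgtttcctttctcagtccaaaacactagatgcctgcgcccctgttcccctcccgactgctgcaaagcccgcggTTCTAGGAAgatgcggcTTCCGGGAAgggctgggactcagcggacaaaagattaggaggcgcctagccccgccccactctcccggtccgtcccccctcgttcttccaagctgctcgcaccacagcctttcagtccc
The matches begin 241, 230, 136 and 119 bases before the start. The same window of Prl, on the minus strand at chr17:38298218-38298467, holds 1 match, which begins 194 bases before the start.
Prl: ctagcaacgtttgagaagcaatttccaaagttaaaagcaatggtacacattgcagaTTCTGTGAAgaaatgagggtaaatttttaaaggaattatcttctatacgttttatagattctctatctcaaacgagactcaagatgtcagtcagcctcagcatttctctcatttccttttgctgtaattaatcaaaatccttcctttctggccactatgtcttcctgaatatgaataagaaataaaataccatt
The letters GCGTG, the core of the element bound by the aryl hydrocarbon receptor, were searched on both strands and stood in 29.7% of all windows. They occurred in a window of Prlr, Vipr1 and Oxtr, and in none of Prl, Drd2, Vipr2, Stat5a, Stat5b or Cish. A match is a description of the letters and not evidence of binding.

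Around these genes, 10 lists of the pathway held 123 genes, of which 105 were tested and 0 passed in either direction. At an unadjusted p under 0.05 there were 13, or 12.4%, near the 10.7% of all genes. Groups did not overlap for 6 of them, 5.71% beside 7.10%. The median difference was 0.02, as over all genes.

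**Figure D4:**
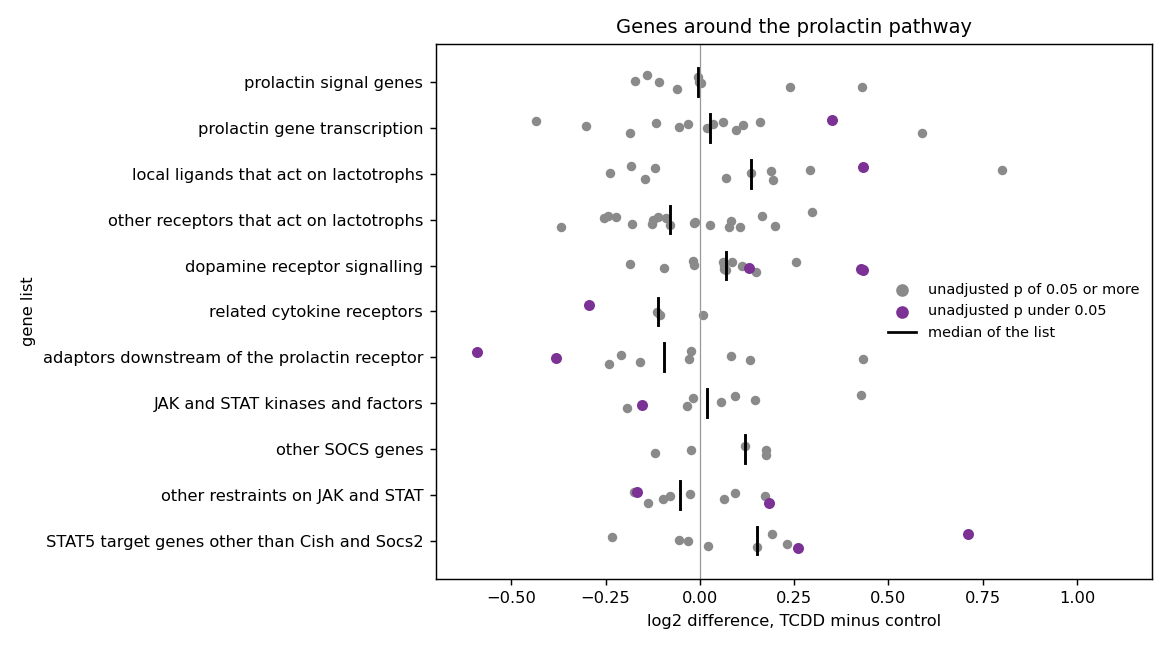
Each point is the log2 difference (TCDD minus control) of 1 gene, by list, with the list's median as a bar and purple for an unadjusted p under 0.05. The list medians lie between -0.11 and 0.15, and the points spread to both sides of 0 in each list.

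Of 14 genes for factors that control Prl transcription, 8 were higher and 6 lower, and 0 passed. Pou1f1, the POU factor required for lactotrophs, stood at 2.10, 2.23, 2.24 and 2.34 on control replicates 1 to 4 and at 2.88, 2.42, 2.24 and 2.77 on TCDD replicates 1 to 4. The groups overlapped through TCDD replicate 3, and the difference was 0.35 (SE 0.14; limma, adjusted p = 0.44). The other smallest p-values of this list belonged to Nr3c1 at -0.19 (SE 0.13), Etv1 at 0.11 (SE 0.09) and Ikzf1 at -0.30 (SE 0.26; above background on 3 of 4 control and 2 of 4 TCDD arrays), while Creb1 was at 0.02 (SE 0.07).

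Of 11 genes for local ligands, 7 were higher and 4 lower. Tgfb1, a growth factor that restrains lactotrophs, stood at -4.56, -4.55, -4.72 and -4.81 on the control arrays and at -4.29, -4.40, -4.01 and -4.22 on the TCDD arrays. The groups did not overlap, but the difference of 0.43 (SE 0.10) did not pass (limma, adjusted p = 0.24). Vip, the ligand of Vipr1 and Vipr2, differed by 0.80 (SE 0.62), with an SD of 1.02 in controls. Egf and Tgfb3, both growth factors, differed by -0.24 and -0.12, and Tac1, which encodes substance P, by 0.29 (SE 0.92). The other receptors that act on lactotrophs had 19 genes tested, 7 higher and 12 lower. At an unadjusted p under 0.05 there were 0 of the 19, where the share over all genes was 10.7%. Among the 19 were Esr1, an estrogen receptor, at 0.30 (SE 0.15; above background on 3 of 4 control arrays), Galr2 at -0.22 (SE 0.13), Sstr3 at -0.37 (SE 0.21), Gabbr1 at -0.18 (SE 0.10) and Drd4, another dopamine receptor, at -0.01 (SE 0.32).

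Downstream of the dopamine receptor, 11 of 15 tested genes were higher and 4 lower. Gnai1, an inhibitory G protein subunit that couples to D2, stood at -5.28, -5.41, -5.53 and -5.49 on the control arrays and at -5.03, -4.94, -5.17 and -4.84 on the TCDD arrays. Its groups did not overlap, and the difference of 0.43 (SE 0.09), a fold change of 1.35, did not pass (limma, adjusted p = 0.20; exact permutation p = 0.029, the smallest possible with 4 against 4). Arrb1, a beta-arrestin, differed by 0.43 (SE 0.14) and Gnb1, a G protein beta subunit, by 0.13 (SE 0.06). Kcnj6, a potassium channel opened by G proteins, differed by 0.26 and Grk6, a receptor kinase, by -0.02. The close relatives Gnai2 and Gnai3 differed by 0.07 (SE 0.05) and -0.02 (SE 0.06).

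Downstream of the prolactin receptor, 3 of 10 adaptor genes were higher and 7 lower. Vav2, a signalling adaptor, stood at 2.16, 2.06, 1.97 and 1.98 on the control arrays and at 1.57, 1.41, 1.79 and 1.88 on the TCDD arrays, a difference of -0.38 (SE 0.11; limma, adjusted p = 0.32). Gab1, a docking protein, was above background in 4 of 4 controls and in 1 of 4 exposed dams, so no difference is given for it. Of 8 JAK and STAT genes, 4 were higher and 4 lower. Jak2, the kinase attached to the prolactin receptor, differed by -0.02 (SE 0.09) and Stat2 by -0.15 (SE 0.06). Stat4 differed by 0.43 and Stat3 by 0.09. Among the adaptors, the docking protein Irs2 and the kinases Src and Fyn differed by -0.21, -0.16 and -0.02.

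Of 5 other SOCS genes, 3 were higher and 2 lower, with Socs3 at -0.12 (SE 0.12) and Socs1 at 0.18 (SE 0.15; above background on 3 of 4 arrays in each group). Socs4, Socs7 and Socs5 were at 0.12, 0.18 and -0.02. Of 10 other restraints on the pathway, 4 were higher and 6 lower, among them Pias4 at -0.17 (SE 0.06) and Pias2 at 0.18 (SE 0.07), both inhibitors of STAT proteins. Pias1 was at 0.17, and the phosphatases Ptpn6 and Ptprc at -0.14 and -0.03. Of 4 related cytokine receptors, 1 was higher and 3 lower, with Lifr at -0.29 (SE 0.12), Il6st and Ghr both at -0.11 and Epor at 0.01. Of 9 further STAT5 target genes, 6 were higher and 3 lower. Igf1, a growth factor, differed by 0.71 (SE 0.28) and Pim1, a kinase, by 0.26 (SE 0.11), neither past the threshold (limma, adjusted p = 0.44 and 0.45). Ccnd1, a cyclin, differed by 0.23 (SE 0.12) and Mcl1, a survival factor, by 0.15 (SE 0.09), while Osm, a cytokine, was at 0.02.

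Among the genes whose profile over the 8 arrays was most like that of Prl were Ell2 and Slc39a7. Their log2 levels, each relative to its own mean, had a root mean square difference from Prl of 0.03, where the median over 11722 genes well above background on all arrays was 0.16. The measure takes genes of small spread first. For Vipr1, the gene with the widest spread among the 9, they were Sdk2, Rptn and Slc16a5, at 0.22 beside a median of 0.44.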

How the data were processed

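Cy3-labelled RNA of 8 pituitaries was hybridised to 8 single-colour arrays. The authors deposited scanner intensities. Per the file headers these came from Feature Extraction 10.7.1.1 (Agilent): processed intensities (background-subtracted, detrended, with surrogates for dim spots) and flags, computed array by array. A deposited table of intensities with 1 shared distribution over the arrays, its steps not given in the sources used here, served as an alternative.

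Processed signals were divided by the array's 75th percentile over non-control spots and put on the log2 scale. Outlier spots were set to missing, spots of a probe averaged, and probes kept if well above background on 4 or more of 8 arrays. The brightest kept probe stood for a gene, named through RefSeq (GRCr8). The comparison used limma 3.58.1 (R 4.3.3) with no covariate, and p-values, two-sided, were adjusted by Benjamini-Hochberg over 17361 genes (threshold 0.05). For members, all 70 assignments of arrays to groups also gave an exact permutation p (two-sided), which cannot go below 0.029. The fit was tested on simulated data for 17361 genes, with 50 genes changed at each size. It called 54% of them at 1.5-fold, 78% at 2-fold, 92% at 4-fold and 96% at 8-fold, with 8 false calls. A change of 1.5-fold was thus often missed. In the data 14 genes passed, fewer than were called in the simulation, and the adjusted cutoff is stricter when fewer genes pass. The simulated rates may thus be too high for the data.

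The members and the lists were chosen with earlier results of these data known. The naming rule took all members, the AhR check, and from each list up to 4 genes of smallest and 1 of largest p. Outside it, Gnai2, Gnai3 and the casein genes were named after their values were seen. The adjusted p of a gene's other probe comes from a fit over 19950 kept probes. Some genes that the naming rule takes are not reported here.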

Additional observations from a re-analysis of the deposited data

How the results depend on the processing

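In every setting tried, 0 of the members tested passed, and the lowest adjusted p among 200 values over 23 settings was 0.36 (Cish with array weights). Prlr, Drd2, Vipr1, Vipr2, Stat5a and Cish kept their sign in each setting run, while their size ranged from -0.24 to -0.0067, -0.12 to -0.01, 0.14 to 0.57, 0.11 to 0.34, -0.19 to -0.04 and -0.22 to -0.09. For 3 genes the sign turned. Prl stood at 0.026 with quantile normalization, 0.013 with normexp and quantile normalization, 0.023 with array weights and 0.026 in the deposited table. Stat5b stood at -0.056 with quantile normalization, -0.035 with median scaling, -0.0080 with normexp and quantile normalization and -0.054 in the deposited table. Socs2 stood at 0.028 with normexp and the 75th percentile and at 0.0048 with the median of spots, an alternative added after seeing the data, as was the other probe of Drd2 and Cish. Leaving out 1 array in turn gave -0.030 to 0.048 for Prl, -0.040 to 0.062 for Stat5b and -0.091 to 0.080 for Socs2. The unadjusted p was under 0.05 in 10 of the 200 values. For Cish this was with quantile normalization, normexp with quantile normalization, median scaling, array weights and the deposited table (-0.21, -0.15, -0.21, -0.20 and -0.21). For Vipr2 it was with normexp and the 75th percentile, array weights and without control replicate 4 (0.19, 0.34 and 0.32). For Prlr it was in the deposited table and without control replicate 4 (-0.24 and -0.22). Over all 17361 genes, from 1568 (median scaling) to 2274 (array weights) had an unadjusted p under 0.05 in these settings.

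Of all genes, 14 passed (10 higher). The count was 1 with quantile normalization (0 higher), 9 with median scaling (5 higher), 0 with normexp and quantile normalization (limma, 1922 at an unadjusted p under 0.05), 0 with normexp and the 75th percentile (1818), 4 with trend, 30 with array weights (20 higher) and 1 in the deposited table. It ranged from 0 to 11 when 1 array was left out, being 0 without control replicate 3 (1554 unadjusted) or TCDD replicate 1 (1631). Same-numbered arrays did not deviate together (correlations from -0.10 to -0.02). Such correlations cannot exclude that the numbers pair the samples, and the labels used here do not say. With the replicate number as a block 0 genes (1514 unadjusted) and 0 members passed. The causes were not tested. The 4 arrays per group and, for Prl, Vipr1, Vipr2, Stat5b and Cish, the single spot per probe limit the precision.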

Other observations

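Stat5a, Stat5b and Pou1f1 split the TCDD arrays alike, a pattern chosen after its values were seen. No share of all genes with such a split is given, so how common it is remains unknown. For Stat5b, on a single spot per array, the SD was 0.13 in either group. On TCDD replicates 1 and 4, Stat5a stood at -0.27 and -0.19, Stat5b at -3.95 and -4.00, and Pou1f1 at 2.88 and 2.77. On TCDD replicates 2 and 3 they stood lower, at -0.59 and -0.62, -4.23 and -4.13, and 2.42 and 2.24. Of the lactotroph markers Agtr1b followed the same split, at 3.94 and 4.14 against 3.18 and 3.20. Prl and Drd2 did not: Prl was lowest on TCDD replicate 4, and Drd2 lowest on replicate 1 and highest on replicate 3. Prlr, Cish, Socs2 and Vipr1 did not follow the split either. Vipr2 went the other way, at -3.30 and -3.37 on TCDD replicates 1 and 4 against -3.21 and -3.07 on TCDD replicates 2 and 3.

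Csn1s1, a casein gene that STAT5 drives in the mammary gland, was the one of 5 milk protein genes that the filter on dim probes kept. It stood at -3.45, -3.19, -3.33 and -2.98 on control replicates 1 to 4 and at -2.70, -2.57, -2.94 and -2.89 on TCDD replicates 1 to 4. The groups did not overlap, and the difference of 0.46 (SE 0.12) did not pass (limma, adjusted p = 0.30; exact two-sided permutation p = 0.029). Csn2, Csn3, Lalba and Wap were not kept. Whether this probe reads casein messenger RNA in the pituitary was not tested.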
